A study of Penicillium oxalicum with 6 samples.

Results

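The transcripts of 9 gene IDs were followed that published work on Penicillium oxalicum gives as genes of cellobiohydrolases and endoglucanases. They were chosen by ID: POX05587, POX04786, POX01166, POX02740, POX05570, POX05571, POX06147, POX07535 and POX01896. All 9 were found among the 9834 IDs of each deposited table. The tables used here pair no ID with a product, so the enzyme label of the 9 could not be checked. Which of them encodes a cellobiohydrolase and which an endoglucanase is not stated below, and no sequence is shown.

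P. oxalicum, a mould, releases enzymes that degrade plant cell walls into its surroundings. RNA sequencing compared 3 libraries of strain MuPOX09752, in which the gene POX09752 was deleted, with 3 libraries of strain Ku70, the control strain of the series. Ku70 takes part in non-homologous end joining, and hosts for gene replacement in fungi often lack it. All 6 libraries are labelled as mycelium (1 g) kept for 24 h in liquid medium with 2% Avicel, a microcrystalline cellulose. The growth text names only MuKu70, so the labels do not say in which background POX09752 was deleted, and neither a number of clones nor a complemented strain is given. The study's question was how this transcription factor affects transcripts of cellulase and xylanase genes.

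Cellulose is cut by enzymes that act together. Endoglucanases cleave within the chain, cellobiohydrolases release the disaccharide cellobiose from chain ends, and beta-glucosidases split cellobiose into glucose. In filamentous fungi these genes are generally induced by cellulose or its fragments and repressed by easily used sugars.

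Depth was 13099454 to 13522926 expected counts per deletion library and 13467192 to 14115694 per control library. POX09752 itself was listed at a count of 0 in each deletion library, against 1568, 1375 and 1663 counts in the control libraries, so no library went against its label. Deletion replicate 3 stood somewhat apart. Its Pearson's r across tested genes, on log2(FPKM + 1), was 0.974 and 0.979 with deletion replicates 1 and 2, which had 0.991 between them, while control libraries had 0.994 to 0.995. FPKM is the number of fragments per unit of gene length, scaled to the library's mapped fragments. No source says whether the 3 libraries of a strain came from separate cultures, and the p-values therefore speak only to the spread among the libraries at hand. In such bulk mycelium, fewer hyphae that express a gene and less of its RNA per hypha cannot be told apart.

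More transcript was called in the deletion strain for 5 of the 9 members, POX05587 among them, but levels were low in both strains. Members had to average 1 FPKM or more across both strains to be tested, and 7 did. Of these, 5 rose in the deletion strain, 0 fell and 2 did not pass the test (edgeR's quasi-likelihood test, called at a p under 0.05 after Benjamini-Hochberg adjustment over all genes). At an unadjusted p under 0.05, the number of falls was also 0, in edgeR, DESeq2 and limma alike. The genes that rose were POX05587 (5.43-fold), POX05571 (3.51-fold), POX01896 (2.31-fold), POX01166 (1.87-fold) and POX04786 (1.48-fold). Over all 8807 tested genes, 29.8% were called higher, 30.2% lower and 60.1% in either direction, so the loss of POX09752 went with changes throughout the transcriptome. After quantile normalisation of the FPKM values, 2 of the 7 were called higher (limma), against 5 in limma without it. A rise of at least 2-fold was called for 3 members, POX05587 among them, and for 12.6% of all tested genes (edgeR). Low genes moved up more often than down: of 1844 tested genes with a mean under 10 FPKM, as all members had, 34.2% were called higher and 19.4% lower, with a median log2 fold change of 0.26.

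POX05587 passed the filter only through its level in the deletion strain, so its call is not counted as support for a rise of the group. Leaving it out, 4 of 6 tested members rose, 2 of them by an estimated 2-fold or more (edgeR). Without any filter all 9 members could be tested, and 5 rose, POX05587 among them, 0 fell and 4 did not pass (edgeR, where 28.1% of 9739 genes were called higher and 27.7% lower). Without deletion replicate 3, 4 of 6 members rose among those that passed the filter, where 5819 of all 8770 tested genes were called in either direction. With no filter and without that library 5 of 9 rose, POX05587 among them. The share of all genes called higher is not given for either fit. The median log2 fold change in the fit of all libraries without a filter was 0.59 over the 9 members, POX05587 included, and 0.03 over all genes in it. That 0.59 is the value of POX02740, which did not pass. The nearer comparison for these low members is the median of 0.26 over tested genes under 10 FPKM, from the fit with the filter. In that fit the median over the 7 tested members was 0.90. It includes POX05587 and leaves out the 2 members below the filter. In 6 of the 9 members every deletion library lay above every control library, and in 1, POX05570, every deletion library lay below. Among all 9739 IDs with a count, 34.7% were separated upward in this way and 29.7% downward.

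**Figure D1:**
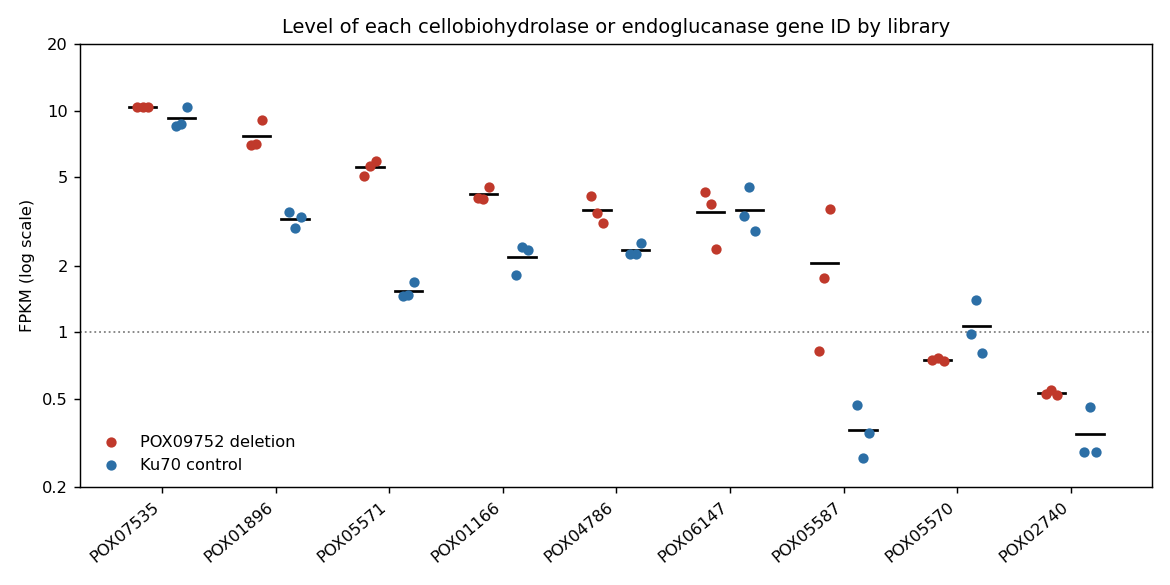
FPKM of each of the 9 members in every library, on a log scale, with POX09752 deletion libraries (red) left of Ku70 control libraries (blue), replicates 1 to 3 from left to right and the mean as a black bar. The dotted line marks 1 FPKM. Values run from 0.27 to 10.39 FPKM, and the strains are separated for all members except POX07535 and POX06147.

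POX05571 had the smallest adjusted p of the members. It had 5.09, 5.61 and 5.94 FPKM in the deletion libraries, against 1.46, 1.48 and 1.68 FPKM in the control libraries. The lowest deletion value was thus far above the highest control value. Its log2 fold change was 1.81 ± 0.16 (SE, adjusted p = 3.58e-05, edgeR), and the call held under all 24 alternatives in which it was tested. In limma the log2 fold change was 1.36 on log2(FPKM + 1) and 0.96 after quantile normalisation. These levels rest on 99, 107 and 117 counts in the deletion libraries and 30, 29 and 34 in the control libraries.

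POX01896 was the member with the most counts, 622 over the deletion libraries together and 272 over the control libraries. Its level was 7.02, 7.09 and 9.04 FPKM in the deletion libraries and 3.49, 2.95 and 3.32 FPKM in the control libraries. Groups did not overlap, and deletion replicate 3 was the highest of the 6 libraries. The log2 fold change was 1.21 ± 0.15 (SE, adjusted p = 0.000276, edgeR), and 1.09 without deletion replicate 3, with the call kept under all 25 alternatives. These include a filter at 5 FPKM, which the gene passed only through its level in the deletion strain. In limma the log2 fold change was 1.03 on log2(FPKM + 1) and 0.73 after quantile normalisation.

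POX01166 stood at 4.04, 4.01 and 4.53 FPKM in the deletion libraries, against 1.81, 2.43 and 2.35 FPKM in the control libraries. The deletion values were close together and all above the control values. The log2 fold change was 0.90 ± 0.18 (SE, adjusted p = 0.00266, edgeR). In limma on log2(FPKM + 1) it was 0.70 (adjusted p = 0.00383), and after quantile normalisation 0.28 and no longer called (adjusted p = 0.107).

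POX04786 rose least of the called members and passed the test under 14 of 24 alternatives. It had 4.12, 3.45 and 3.13 FPKM in the deletion libraries and 2.25, 2.26 and 2.54 FPKM in the control libraries, again without overlap. The log2 fold change was 0.57 ± 0.18 (SE, adjusted p = 0.0235, edgeR). In DESeq2 the adjusted p was 0.0506 at a log2 fold change of 0.58, and without deletion replicate 1, control replicate 1 or control replicate 2 it was 0.0807, 0.0653 or 0.0756 in edgeR. In limma the log2 fold change was 0.44 (adjusted p = 0.0284), and after quantile normalisation 0.0054 (adjusted p = 0.977).

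POX05587 had the highest fold change and the widest spread. In the deletion libraries it had 0.82, 1.76 and 3.60 FPKM, from 18, 38 and 80 counts, and in the control libraries 0.47, 0.27 and 0.35 FPKM, from 11, 6 and 8 counts. The 3 deletion libraries therefore differed among themselves by more than deletion replicate 1 differed from the control. The fitted log2 fold change was 2.44, with a 95% interval from 1.12 to 3.76 (adjusted p = 0.00678, edgeR). Without deletion replicate 3 the gene fell below the filter. In the fit with no filter its log2 fold change was then 1.77 ± 0.42, against 2.44 with all libraries, and the call was kept (SE, adjusted p = 0.00612, edgeR). In limma the log2 fold change was 1.07 (adjusted p = 0.0275), and after quantile normalisation 0.71 and no longer called (adjusted p = 0.0923).

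POX07535 was the most strongly expressed member in both strains and did not pass the test. It had 10.38, 10.37 and 10.37 FPKM in the deletion libraries and 8.54, 8.74 and 10.39 FPKM in the control libraries. Control replicate 3 reached the level of the deletion libraries, so the groups overlapped. The log2 fold change was 0.14, with a 95% interval from -0.19 to 0.47 (adjusted p = 0.43, edgeR), which holds no change as large as 2-fold in either direction.

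POX06147 did not pass the test either. Its levels were 4.30, 3.78 and 2.37 FPKM in the deletion libraries, against 3.35, 4.52 and 2.88 FPKM in the control libraries. The lowest value was that of deletion replicate 3 and the highest that of control replicate 2, with the rest in between. The log2 fold change of -0.067 had a 95% interval from -0.68 to 0.54 (adjusted p = 0.839, edgeR), and its sign depended on which libraries were used.

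The remaining members, POX05570 and POX02740, lay below the filter and had at most 15 counts in a library. POX05570 had 8 counts in each deletion library and 11, 15 and 9 in the control libraries, or 0.75, 0.77 and 0.74 FPKM against 0.98, 1.40 and 0.81 FPKM. It was the only member whose deletion values all lay below the control values. Its log2 fold change without a filter was -0.52, with a 95% interval from -1.27 to 0.23 (adjusted p = 0.222, edgeR), an interval that holds both an equal level and a fall of more than 2-fold. POX02740 had 0.53, 0.55 and 0.52 FPKM in the deletion libraries and 0.29, 0.46 and 0.29 FPKM in the control libraries. These values rest on about 7 counts per deletion library (6.99, 7 and 6.88) and on 4, 6 and 4 per control library. The ratio of its counts scaled to library totals was 1.56, and its exact binomial interval (95%, for counting error alone) ran from 0.755 to 3.31. Its log2 fold change was 0.59, with a 95% interval from -0.28 to 1.45 (adjusted p = 0.291, edgeR without a filter). For either gene an exact two-sided permutation of log2(FPKM + 1) reached p = 0.1, below which 3 against 3 libraries cannot go.

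**Figure D2:**
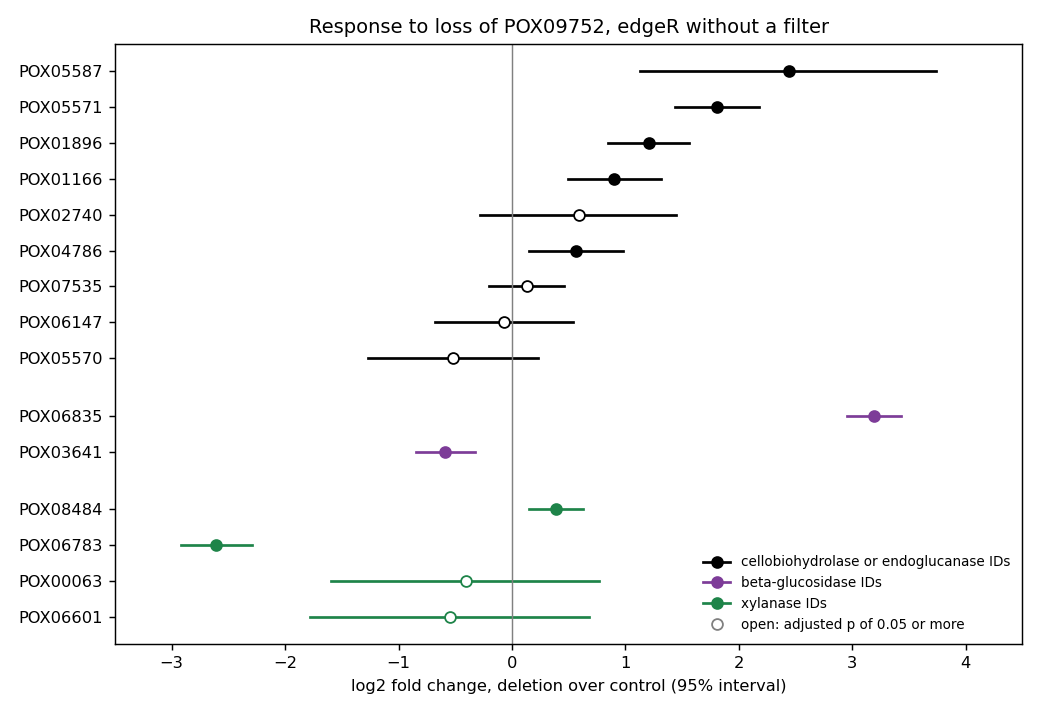
Log2 fold change, deletion over control, with its 95% interval (edgeR, fitted without a filter on low genes) for the 9 members (black), 2 beta-glucosidase IDs (purple) and 4 xylanase IDs (green). Filled points have an adjusted p under 0.05. Members run from 2.44 for POX05587 to -0.52 for POX05570, and 5 of the 9 intervals lie wholly above 0.

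POX05570 and POX05571 carry adjacent numbers but did not move alike. The log2 ratio of POX05571 to POX05570, with 0.1 FPKM added to each, was 2.72 ± 0.12 in the deletion strain and 0.52 ± 0.45 in the control (SD, n = 3 each). Values lay between 2.61 and 2.85 in the deletion libraries and between 0.075 and 0.97 in the control libraries. The difference of 2.20 gave p = 0.1 in an exact two-sided permutation test, the smallest this design allows. Since each ID was already separated between the strains, in opposite directions, the ratio had to reach this p, which adds no support. The low counts of POX05570 limit this ratio, and the difference ranged from 1.97 to 2.42 when a library was left out.

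The order of the members by level differed between the strains. In the deletion strain POX07535 (10.4 FPKM) was followed by POX01896 (7.72 FPKM), POX05571 (5.55 FPKM), POX01166 (4.19 FPKM), POX04786 (3.57 FPKM), POX06147 (3.48 FPKM), POX05587 (2.06 FPKM), POX05570 (0.753 FPKM) and POX02740 (0.533 FPKM). The ranges of neighbours from POX01166 to POX05587 overlapped, so their order there is not settled by 3 libraries. Nor are the last places: POX05570 and POX02740 were apart on 8 and about 7 counts per library. The lowest value of POX05587, 0.82 FPKM, was close to the highest of POX05570, 0.77 FPKM. In the control POX07535 (9.22 FPKM) was followed by POX06147 (3.58 FPKM), POX01896 (3.25 FPKM), POX04786 (2.35 FPKM), POX01166 (2.2 FPKM), POX05571 (1.54 FPKM), POX05570 (1.06 FPKM), POX05587 (0.363 FPKM) and POX02740 (0.347 FPKM). There the overlapping neighbours were POX06147 with POX01896, POX04786 with POX01166, and POX05587 with POX02740. POX05571 thus held place 3 in the deletion strain and place 6 in the control.

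All 9 members lay below the median ID, at 24.3 FPKM in deletion libraries and 23.2 FPKM in control libraries on average. Their mean level was under 5 FPKM for 6 members in the deletion strain and for 8 in the control. The medium is labelled as containing cellulose, but the enzyme label of the members could not be checked. These low levels are therefore not read as a response to it. POX07535, the highest, lay at the 30.5th percentile of all IDs in the deletion strain and the 30.7th in the control. Since FPKM is scaled to length, a high level can rest on few counts. The length implied by count, FPKM and library total was 706 bases for POX07535 and 2013 bases for POX01896, the lowest and the highest of the 9. In deletion replicate 1, POX07535 accordingly had 98 counts at 10.38 FPKM, and POX01896 had 189 counts at 7.02 FPKM.

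Added up, the 9 members reached 37, 37.4 and 40.2 FPKM in the deletion libraries, against 22.6, 24.5 and 24.6 FPKM in the control libraries. Deletion libraries averaged 38.2 ± 1.75 FPKM, against 23.9 ± 1.11 FPKM in control libraries (SD, n = 3 each), with no overlap. The difference of 14.3 FPKM was 5.77 FPKM after quantile normalisation over all genes. No test is given for a sum over chosen members. POX01896 and POX05571 made up 59.2% of the difference before that normalisation (8.47 FPKM together). POX07535 held 27.2 ± 1.22% of the sum in the deletion strain and 38.5 ± 3.35% in the control, and POX05571 held 14.5 ± 0.672% and 6.44 ± 0.394% (SD, n = 3 each). In counts, the members took 636.78, 635 and 733.88 in the deletion libraries and 376, 379 and 391 in the control libraries.

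**Figure D3:**
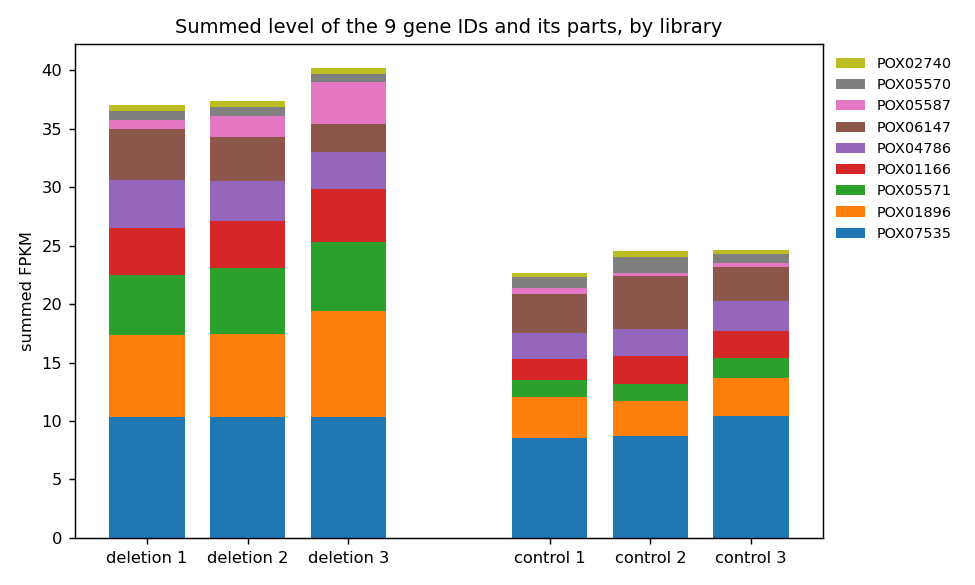
Summed FPKM of the 9 members in each library, stacked by gene, with deletion replicates 1 to 3 left of control replicates 1 to 3. The deletion bars reach 37 to 40.2 FPKM and the control bars 22.6 to 24.6 FPKM, and the bottom segment, POX07535, differs little while the POX01896 and POX05571 segments are taller in the deletion strain.

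The spread between libraries was close to or below counting error for most members. In 12 of 18 cases (9 members in 2 strains) the coefficient of variation (CV) of counts, scaled to library totals, was at or below the one that counting alone gives at the mean count. It was over 2 times the counting value in 3 cases, all in the deletion strain. These were POX05587 (68.6% against 14.9% from counting), POX06147 (28.8% against 13.1%) and POX01896 (14.8% against 6.94%). In the control the same genes had CVs of 28.1%, 23.6% and 8.39%, against 34.6%, 12.7% and 10.5% from counting. The CV of POX06147 was thus above the counting value in both strains, but each CV rests on 3 libraries and the excess was not tested. Deletion replicate 3 had the highest of the deletion values for POX05587 and POX01896 and the lowest for POX06147. At the other end, POX07535 varied by 0.0723% among the deletion libraries, where counting error alone would give 10.1%, so this closeness cannot be read as the precision of the level. A difference in spread between the strains was not tested.

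**Figure D4:**
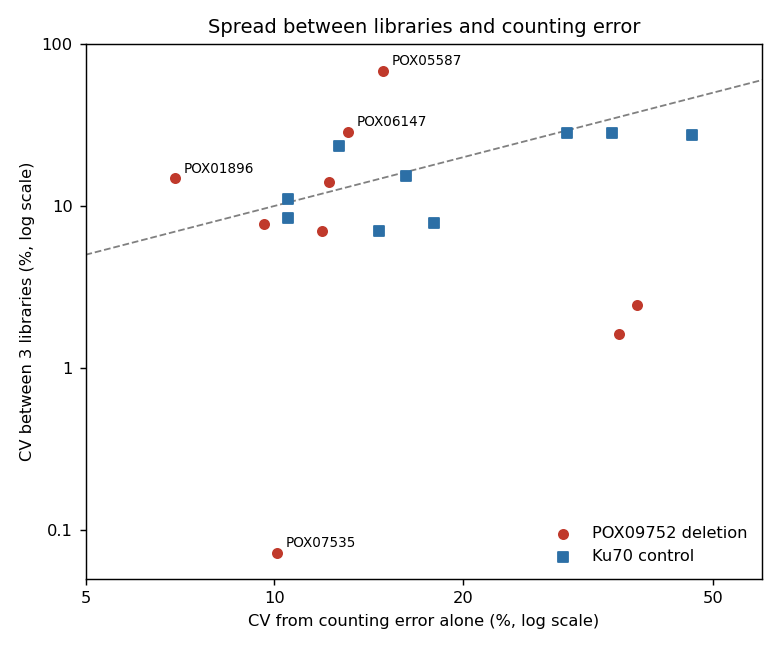
CV between the 3 libraries of a strain against the CV that counting error alone gives, both in percent on log scales, for the 9 members in the deletion strain (circles) and the control (squares). Points on the dashed line would vary by counting error only. POX05587, POX06147 and POX01896 in the deletion strain lie furthest above the line, and POX07535 in the deletion strain lies furthest below.

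POX01166, POX06147 and POX02740 had a count that was not whole in 1, 1 and 2 of the 6 libraries, as happens when the counting program divides a read among similar sequences. Counts that are not whole occurred in at least 1 library for 11.2% of all IDs. How many reads of the members also matched another gene cannot be seen in these tables.

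Other IDs of plant cell wall breakdown were taken from lists known to have moved both ways in these data, so their directions are a description only. POX06835, which published work gives as a beta-glucosidase gene, had 274, 235 and 232 FPKM in the deletion libraries and 26.1, 27.2 and 25.8 FPKM in the control libraries (log2 fold change 3.20 ± 0.10, SE, adjusted p = 2.1e-07, edgeR). It equalled 6.48 ± 0.831 times the summed FPKM of the 9 members in the deletion strain and 1.1 ± 0.0537 times in the control (SD, n = 3 each). The other beta-glucosidase ID, POX03641, fell (log2 fold change -0.59 ± 0.12, SE, adjusted p = 0.00292, edgeR). Of the 4 xylanase IDs, POX08484 rose (0.39 ± 0.10 on the log2 scale, SE, adjusted p = 0.011) and POX06783 fell (-2.60 ± 0.14, SE, adjusted p = 2.5e-06, edgeR). POX00063 and POX06601 lay below the filter, at 0.4 and 0.123 FPKM in deletion libraries, against 0.52 and 0.18 FPKM in control libraries.

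Among the 32 IDs numbered within 2 steps of a member, 10 rose, 10 fell and 12 did not pass the test (edgeR). The share called, 62.5%, was near the 60.1% of all tested genes. Whether neighbouring numbers are neighbours on a chromosome could not be checked. Next to POX06147, which did not pass, POX06146 averaged 109 ± 24.7 FPKM in deletion libraries, against 915 ± 27.7 FPKM in control libraries (SD, n = 3 each; log2 fold change -3.10, adjusted p = 4.21e-06, edgeR). POX06145 averaged 273 ± 91.3 FPKM in deletion libraries, against 1820 ± 95.8 FPKM in control libraries (SD, n = 3 each; log2 fold change -2.77, adjusted p = 4.28e-05, edgeR). Next to POX07535, POX07534 reached 3057 ± 453 FPKM in the deletion strain, against 1129 ± 102 FPKM in the control (SD, n = 3 each; log2 fold change 1.40, adjusted p = 0.000157, edgeR). Around POX01166, POX01167 and POX01168 rose by 1.66 and 1.42 on the log2 scale (adjusted p = 3.51e-06 and 0.00253) while POX01164 fell by 1.12 (adjusted p = 9.37e-06, edgeR). Near POX04786, POX04784 rose by 2.19 on the log2 scale (adjusted p = 7.79e-05, edgeR). POX05589, 2 steps from POX05587, fell by 1.17 (adjusted p = 7.16e-05, edgeR).

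**Figure D5:**
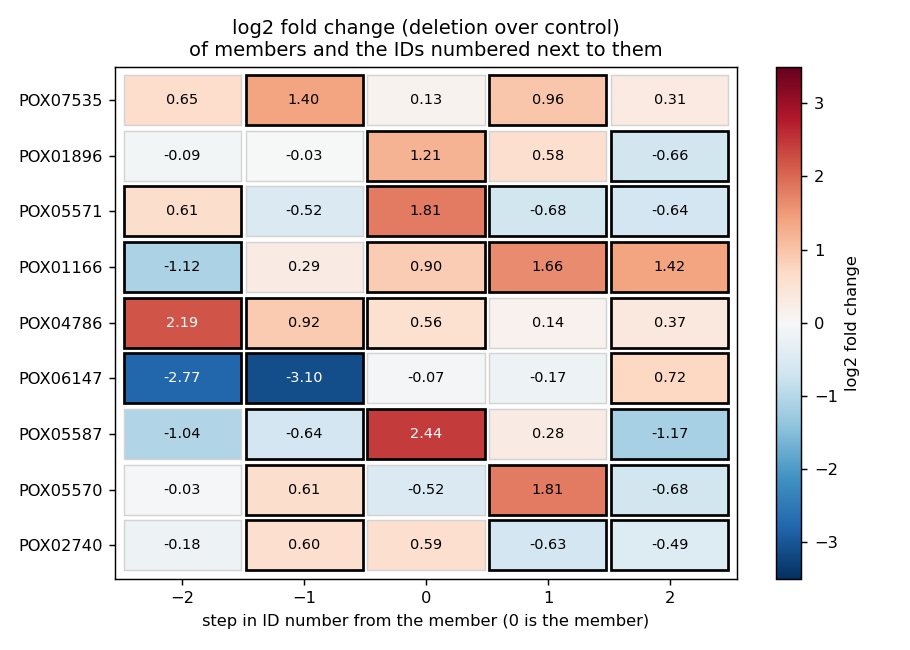
Log2 fold change, deletion over control, of each member (step 0, edgeR without a filter) and of the IDs up to 2 numbers away (edgeR with the filter; members that neighbour each other are repeated). Boxes with a black edge have an adjusted p under 0.05. POX06147 sits at -0.07 beside -2.77 and -3.10, and POX05587 at 2.44 beside values between -1.17 and 0.28.

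The gene patterns most like that of POX07535, the member with the highest mean level, were those of POX07009, POX03016 and POX05518. Pearson's r of log2(FPKM + 1) over the 6 libraries was 0.980, 0.969 and 0.958, the highest among 6963 genes that averaged 10 FPKM or more. POX07009 itself was called higher, unlike POX07535, and averaged 44.2 ± 0.141 FPKM in deletion libraries, against 34.5 ± 5.42 FPKM in control libraries (SD, n = 3 each). POX03016 and POX05518 did not pass the test (edgeR). With 6 libraries and so many genes compared, coefficients of this size are a description only. Within the strains POX07535 did not vary clearly beyond counting error. Its CV was 0.0723% in the deletion and 11% in the control libraries, against 10.1% and 10.5% from counting. Its pattern over the libraries is therefore not set apart from counting error.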

How the data were processed

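Per the file headers, each of the 6 deposited tables holds an expected count and an FPKM value per gene ID. The expected counts were not normalized by the authors, and the FPKM values were scaled by the authors to gene length and library total. RSEM 1.2.12, Bowtie2 2.1.0, DESeq2 and BWA 0.7.10-r789 appear in the submitters' processing notes with no stated role. For build, annotation and strandedness of counting, nothing is given in the sources used here. Of the IDs, 2.76% to 3.24% per library had a count that was not whole, and counts were rounded for testing.

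Libraries were grouped by the strain in the labels. The 8807 genes that averaged 1 FPKM or more were tested with edgeR's quasi-likelihood test and TMM scaling (factors 0.973 to 1.016), and p-values were adjusted over all tested genes (R 4.3.3, edgeR 4.0.16, limma 3.58.1, DESeq2 1.42.0). Standard errors come from the log2 fold change over the root of F, and 95% intervals use the fit's degrees of freedom. The test was checked on simulated data in which far fewer genes changed than were called here, in equal numbers up and down. That check therefore does not cover changes as widespread as these. Depth was 13099454 to 14115694 counts per library; with no molecular identifiers mentioned, intervals on counts hold for counting error alone.

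All 9 members were named, with POX09752, 2 beta-glucosidase and 4 xylanase IDs, IDs within 2 numbers of a member that were called with a log2 fold change of at least 1 in size, and the 3 genes most like the highest member. Members and lists were chosen with earlier results of these data known. No ID matched the reference gene table (0 matches), so names, positions, sequences and markers of other cell types such as conidia were not used here. Results were recomputed with other scalings, other filters, DESeq2, limma on log2(FPKM + 1) and with pseudocounts of 0.1 and 5, quantile normalisation, a replicate block and leaving out each library.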

Additional observations from a re-analysis of the deposited data

How the results depend on the processing

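The number of members called higher, 5, was 4 to 5 with a library left out, 4 in DESeq2 and 5 with the other edgeR scalings, with filterByExpr and in limma with each pseudocount. It was 1 with a filter at 5 FPKM, which left 2 members to test. That 1, POX01896, passed this filter only through its level in the deletion strain (7.72 FPKM, against 3.25 FPKM in the control). Its call there adds no support. After quantile normalisation in limma the number was 2. That normalisation changed the median log2 fold change of tested genes with a mean under 10 FPKM to -0.12, against 0.22 in limma without it; over all tested genes it was -0.056 and 0.032. No alternative called a member lower (0 in each). The number of all genes called, 5290, was 4459 (without control replicate 3) to 5819 (without deletion replicate 3), and 4764 to 5439 otherwise. Of 181 values of the 9 members under an alternative, 165 kept direction and side of the threshold, 12 lost the call and 4 changed sign. The 4 are of POX06147, never called: 0.16 and 0.11 without deletion replicate 3 and control replicate 2, in a range from -0.24 to 0.16, and 0.15 and 0.12 in the same fits without a filter (an alternative chosen after seeing the data). The difference in summed FPKM, 14.3, was 13.3 to 14.9 with a library left out, 12.1 with FPKM rescaled to an equal total in every library, and 5.77 after quantile normalisation. The difference in the log2 ratio of POX05571 to POX05570, 2.20, was 1.97 to 2.42. The letters F, S and T in the labels did not clearly pair the samples, with correlations of -0.017, 0.156 and 0.075 between the deviations of same-lettered libraries. Libraries with different letters had -0.129 to 0.063, a range that holds the first of these values and lies below the others. With the letter as a replicate block 5 members were called higher by edgeR (5282 of all genes) and 4 by limma (5119), where POX04786 had an adjusted p of 0.0616. Depth limits POX05570 and POX02740, with 24 and 20.87 counts over the deletion libraries and 35 and 14 over the control libraries.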
